A study of Mus musculus with 8 samples.

Results

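The genes described here encode the MHC class I molecule and the machinery that cuts, carries and loads its peptides: the heavy chains H2-K1 and H2-D1, the light chain B2m, the transporter subunits Tap1 and Tap2, the loading factor Tapbp, the trimming enzyme Erap1 and the immunoproteasome subunits Psmb8, Psmb9 and Psmb10. They were chosen by name, and all 10 were found among the 23356 genes of the expression table. RNA-seq was carried out on bone marrow-derived dendritic cells (BMDCs), grown for 6 days in GM-CSF and IL-4 (10 ng/ml each) from mice of C57BL/6 background, with the substrain named C57BL/6N in the study's methods. The cells came from wild-type (WT) mice or from mice lacking GEF-H1 (GEF-H1-/-, a knockout of Arhgef2), and were left untreated or given 100 nM ansamitocin-P3, a tubulin-binding drug of the maytansine family that causes microtubules to disassemble, with a labelled time of 5 h in all groups. Each of the 4 groups had 2 libraries, which Cuffdiff combined into 1 FPKM value per gene and group (fragments counted per unit of transcript length and of library size) with a 95% interval, so no SD, no n and no p-value can be given and the spread between the duplicate libraries is not visible. Whether the libraries of a group came from separate mice is not given in the sources used here.

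Class I molecules are built from a heavy chain, B2m and a short peptide, and show samples of the cell's proteins to CD8 T cells. Proteasomes produce the peptides, TAP pumps them into the endoplasmic reticulum, ERAP1 trims them and tapasin, the product of Tapbp, holds the empty class I molecule next to TAP. In the immunoproteasome, the catalytic subunits PSMB5, PSMB6 and PSMB7 are replaced by PSMB8, PSMB9 and PSMB10, whose genes are known as interferon-γ targets. In dendritic cells (DCs) the same pathway serves cross-presentation, the display of peptides from engulfed proteins on class I.

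Arhgef2, the targeted gene, had 42.3 and 45.9 FPKM in control and treated WT BMDCs and 4.59 and 4.16 FPKM in control and treated GEF-H1-/- BMDCs. All 10 class I genes were among the 11397 genes that passed a filter of at least 1 FPKM in a group. Changes are log2 ratios of FPKM + 1, and the interval after a ratio was propagated from the Cuffdiff intervals of the groups, taken as independent. Of the 8 DC markers, Cd74 and H2-Aa, genes of MHC class II presentation, had at least 3073 and 753 FPKM in every group, while Flt3, a receptor of conventional DCs, lay between 1.07 and 2.63 FPKM.

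The levels of the 10 genes ran over about 2 orders of magnitude, and their order was largely kept between groups. B2m was highest in every group, between 2999 and 4052 FPKM, and ranked 11 to 14 among all genes of the table. H2-K1 and H2-D1 came next, at 637 to 763 FPKM, and their intervals overlapped in every group, so their order was not resolved. Psmb8 stood below the heavy chains and above all other members in every group, without overlap on either side. Psmb9, Tapbp and Psmb10 followed with overlapping intervals, then Tap1 and Tap2, which also overlapped in every group, and Psmb10 overlapped with the higher of them in 3 of the 4 groups. Erap1 was lowest, between 35.02 and 40.8 FPKM, and overlapped with Tap1 and Tap2 in treated GEF-H1-/- BMDCs.

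**Figure D1:**
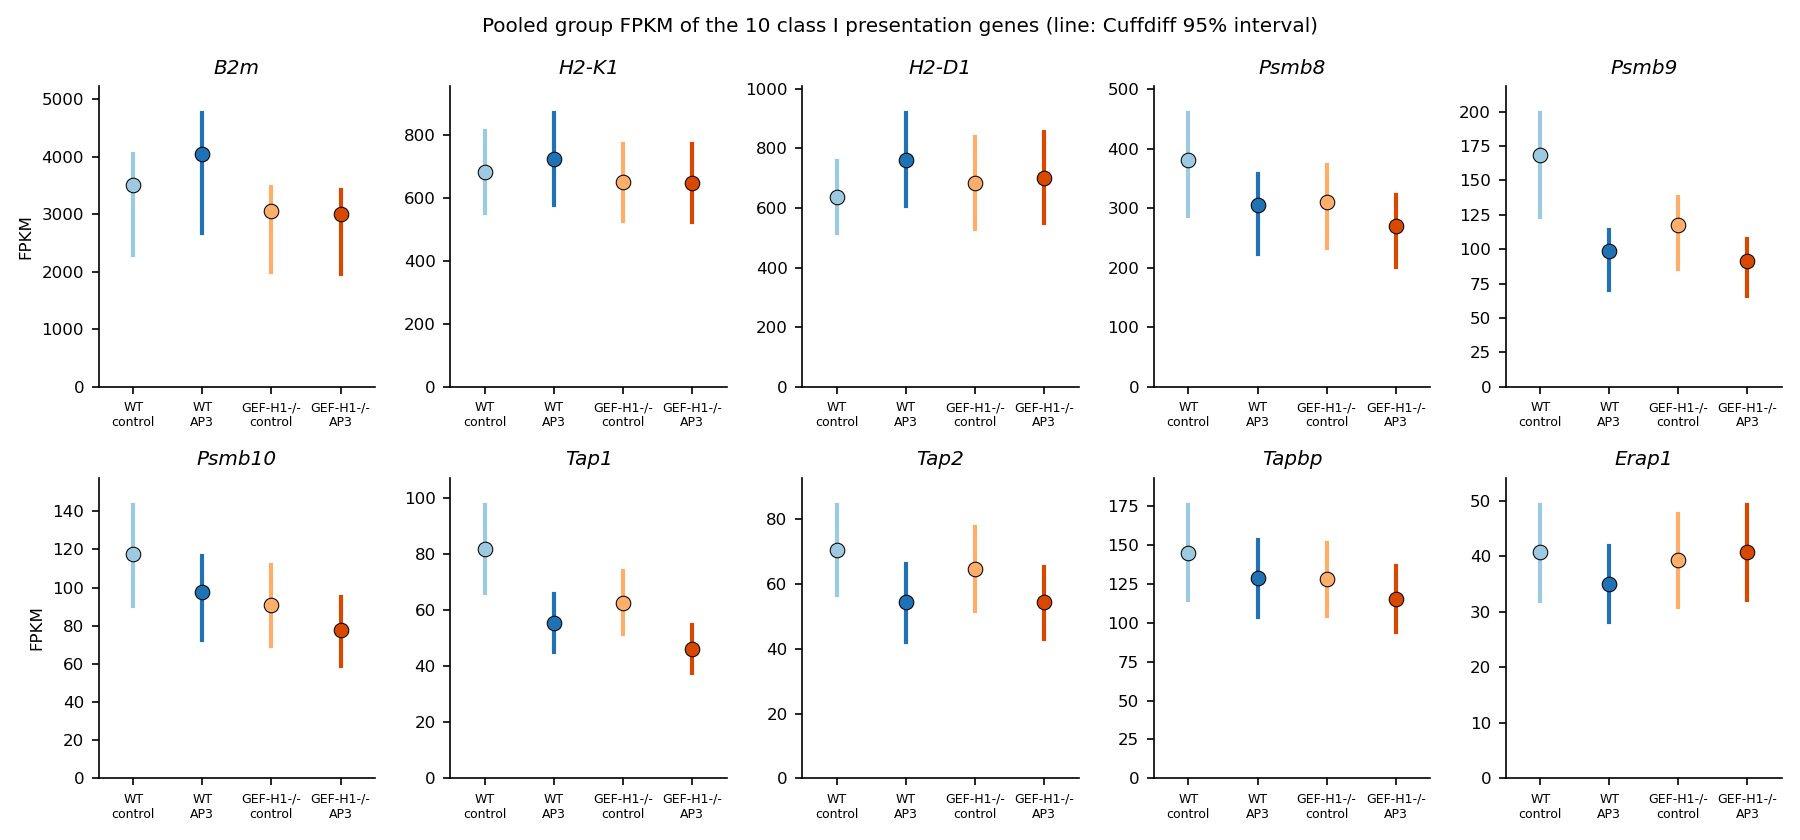
FPKM of the 10 class I presentation genes in the 4 groups, with each gene on its own linear axis from 0; points are the pooled group values and lines the Cuffdiff 95% intervals. The intervals of control and treated WT BMDCs are apart for Tap1 (66.1 to 97.5 against 45.02 to 65.7 FPKM) and Psmb9 (123 to 199 against 70.4 to 114 FPKM) and overlap for the other 8 genes.

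In WT BMDCs, all 7 genes that make, carry, trim or load peptides had log2 ratios of ansamitocin-P3 over control below 0, as did 49.6% of all genes, and 2 of the 7, Tap1 and Psmb9, were called. The 3 chains of the class I molecule had ratios above 0 in the deposited FPKM, none of them called. The median log2 ratio was -0.32 over the 7 peptide-handling genes and 0.21 over the 3 chains, and each of the 7 lay below the lowest chain, a contrast within groups that no rescaling of a whole group alters. It is an order of point values only, since the intervals of all 7 ratios overlapped with that of H2-K1 (-0.31 to 0.49). Psmb9 and Tap1 fell, by the rule that the intervals of both groups do not overlap. This made 2 of 10 genes lower by that rule, beside 7.58% of all 11397 genes lower and 16.8% in either direction. None of the 10 passed a log2 ratio of 1 in size, which 4.94% of all genes did. The median of the 10 genes was -0.24, beside 0.00 over all genes tested. With all groups scaled to the same FPKM total, the median of the 10 was -0.51 beside -0.24 over all genes. Tap2 then joined the genes with intervals apart, which made 3 members, beside 2538 of all 11397 genes in either direction. The intervals of the ratios of all 7 peptide-handling genes lay below 0 in that setting. The share of all genes for which this held was not counted, so it cannot be read as particular to these 7.

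B2m, the light chain shared by all class I molecules, had 3515 FPKM in control and 4052 FPKM in treated WT BMDCs, and 3057 and 2999 FPKM in control and treated GEF-H1-/- BMDCs. H2-K1 had 683 and 726 FPKM in WT and 650.4 and 649.8 FPKM in GEF-H1-/- BMDCs, and H2-D1 had 637 and 763 FPKM in WT and 683 and 701 FPKM in GEF-H1-/- BMDCs. The treated WT value was the highest of the 4 for each chain, and the intervals of all 4 groups overlapped. The log2 ratios in WT BMDCs were 0.21 (-0.37 to 0.79) for B2m, 0.09 (-0.31 to 0.49) for H2-K1 and 0.26 (-0.15 to 0.67) for H2-D1, and with equal FPKM totals they turned to -0.07, -0.19 and -0.02, a rescaling that lowered the median of all genes by 0.24. In GEF-H1-/- BMDCs the ratios were -0.03 for B2m, 0.00 (-0.39 to 0.39) for H2-K1 and 0.04 for H2-D1, the last of which also changed sign with equal totals (-0.01). The balance of the chains moved little: B2m over the sum of both heavy chains was 2.66 and 2.72 in control and treated WT BMDCs, and 2.29 and 2.22 in control and treated GEF-H1-/- BMDCs.

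The heavy chain values carry an uncertainty of their own, since class I genes are near copies of each other. Of all 35-base windows of the annotated transcript, the read length of these libraries, 18.9% of those of H2-K1 and 23.9% of those of H2-D1 also occurred in transcripts of other genes, with H2-D1 and H2-K1 sharing most with each other. The table also lists H2-L at the locus of H2-D1, at 23.1 to 28.6 FPKM with intervals that reach from near 0 to 66.5. B2m shared no window with any other gene.

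Promoter sequences of the chains are shown because the ratios of these 3 genes lay together and their windows hold the same kind of motif. Windows from 250 bases before to 50 after the start site (RefSeq, GRCm38.p6, the assembly of the mm10 build of the table) were matched to 9 of the 10 genes, all except Tap2. The windows of H2-K1 and Erap1 lie inside the listed spans of these genes, so the start site used is not the outer end of the gene. Capitals mark a match to GGGNNTTNCC on either strand, an NF-κB type motif held by 4.79% of 32851 windows of the same length, and in B2m also to GAAANNGAAA, the core of an interferon-stimulated response element (ISRE), held by 3.44%. The stretches lie at chr17:34000389-34000508 on the minus strand (H2-K1), chr17:35262873-35262992 on the plus strand (H2-D1) and chr2:122147511-122147630 on the plus strand (B2m).
H2-K1: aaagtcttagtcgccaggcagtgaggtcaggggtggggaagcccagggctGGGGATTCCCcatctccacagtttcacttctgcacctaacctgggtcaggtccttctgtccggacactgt
H2-D1: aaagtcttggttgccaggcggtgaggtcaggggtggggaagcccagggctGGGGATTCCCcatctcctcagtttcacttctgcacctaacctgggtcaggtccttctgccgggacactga
B2m: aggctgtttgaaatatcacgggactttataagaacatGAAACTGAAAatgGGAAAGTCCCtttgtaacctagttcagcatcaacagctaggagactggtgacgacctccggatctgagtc
The H2-K1 and H2-D1 stretches had the same base at 113 of 120 positions (94.2%). A match is a description of the letters only, and binding was not measured.

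TAP is made of TAP1 and TAP2, and the mRNAs of its subunits were not shown to differ in how far they moved. The drug's change of Tap1 over Tap2 was -0.19 (-0.77 to 0.40) on the log2 scale in WT BMDCs. In GEF-H1-/- BMDCs it was -0.19 (-0.76 to 0.37). Tap1 had 81.8 FPKM (interval 66.1 to 97.5) before and 55.4 FPKM (45.02 to 65.7) after ansamitocin-P3 in WT BMDCs. In GEF-H1-/- BMDCs it had 62.7 FPKM (51.5 to 74.0) before and 46.2 FPKM (37.7 to 54.7) after it. Treated cells were lower in both genotypes, and the WT intervals were apart while the GEF-H1-/- intervals overlapped. The log2 ratio of Tap1 was -0.55 (-0.94 to -0.17) in WT and -0.43 (-0.80 to -0.06) in GEF-H1-/- BMDCs, so that its fall in WT stood at the 9.1 percentile of all genes and its ratio in GEF-H1-/- BMDCs at the 3.0 percentile. Tap2 had 70.5 and 54.3 FPKM in control and treated WT BMDCs and 64.6 and 54.4 FPKM in control and treated GEF-H1-/- BMDCs. Both treated groups of Tap2 lay below both control groups, with overlapping intervals and log2 ratios of -0.37 (-0.80 to 0.06) and -0.24 (-0.66 to 0.17).

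Tapbp and Erap1 showed smaller ratios. Tapbp, which bridges TAP and class I, had 145 and 129 FPKM in WT and 128 and 115 FPKM in GEF-H1-/- BMDCs, with log2 ratios of -0.17 (-0.59 to 0.24) and -0.15 (-0.53 to 0.23). Erap1, the aminopeptidase of the endoplasmic reticulum, had 40.8 and 35.02 FPKM in WT and 39.3 and 40.7 FPKM in GEF-H1-/- BMDCs. It was the 1 peptide-handling gene whose ratio had opposite signs in the genotypes, -0.21 (-0.63 to 0.20) in WT and 0.05 (-0.38 to 0.48) in GEF-H1-/- BMDCs, and both intervals hold 0.

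Tap1 and Psmb9, the genes that fell in WT BMDCs, are neighbours that are read in opposite directions from 1 short stretch of chromosome 17, which is shown for that reason. Psmb9, Tap1, Psmb8 and Tap2 lie within 34292 bases, and 7 of the 10 members are on chromosome 17. The 225 bases between the start sites of Tap1 and Psmb9 (chr17:34187331-34187555, written on the plus strand towards Tap1) are printed here.
Tap1-Psmb9: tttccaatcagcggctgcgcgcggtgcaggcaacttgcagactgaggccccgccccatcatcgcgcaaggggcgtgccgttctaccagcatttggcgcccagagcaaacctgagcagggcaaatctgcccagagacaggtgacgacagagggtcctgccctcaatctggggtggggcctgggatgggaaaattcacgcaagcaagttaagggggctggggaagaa
No letters are in capitals, because neither the motifs above nor TGANTCA (an AP-1 motif, 7.81% of windows) nor TTCNNNGAA (a STAT-type GAS motif, 8.3% of windows), on either strand, occurred in the windows of Tap1 or Psmb9. The same held for Tapbp and Psmb10, while the window of Psmb8 held the GAS motif and that of Erap1 the ISRE core. These letters alone were searched, so nothing follows about binding of the factors.

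All 3 immunoproteasome subunits had ratios of ansamitocin-P3 over control below 0 in both genotypes, and 1 of them, Psmb9 in WT, had intervals apart. Psmb9 had 169 FPKM (interval 123 to 199) before and 98.95 FPKM (70.4 to 114) after ansamitocin-P3 in WT BMDCs. In GEF-H1-/- BMDCs it had 118 FPKM (85.5 to 138) before and 91.6 FPKM (66.3 to 107) after it. Control WT BMDCs were thus the high group, apart from both treated groups, and overlapped with control GEF-H1-/- BMDCs. The log2 ratio of Psmb9 was -0.76 (-1.25 to -0.28) in WT, at the 3.8 percentile of all genes, and -0.36 (-0.84 to 0.13) in GEF-H1-/- BMDCs, at the 4.9 percentile. With equal FPKM totals its WT ratio was -1.04, past the limit of 1.

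Psmb8, the replacement for PSMB5, had 381 and 306 FPKM in control and treated WT BMDCs and 310.5 and 270.7 FPKM in control and treated GEF-H1-/- BMDCs. Its log2 ratios were -0.32 (-0.80 to 0.16) and -0.20 (-0.68 to 0.28). Psmb10, the replacement for PSMB7, had 117 and 97.7 FPKM in WT and 91.0 and 77.8 FPKM in GEF-H1-/- BMDCs. Its log2 ratios were -0.26 (-0.74 to 0.21) and -0.22 (-0.70 to 0.26). For both genes control WT was highest and treated GEF-H1-/- lowest, and each interval of a ratio held 0.

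The constitutive subunits were higher after ansamitocin-P3 in WT BMDCs in the deposited FPKM, which with equal FPKM totals held for Psmb6 (0.11) but not for Psmb5 (-0.10) or Psmb7 (-0.15). Psmb5 had 165 and 187 FPKM in control and treated WT BMDCs, Psmb6 134 and 175 FPKM and Psmb7 147 and 161 FPKM, with log2 ratios of 0.18, 0.38 and 0.13, none with intervals apart. In GEF-H1-/- BMDCs the ratios were 0.04, 0.16 and 0.04. The level of Psmb5 is uncertain, since 71% of its 35-base windows occurred in other annotated transcripts, against 11.3% for Psmb6, 2.31% for Psmb7 and 0% for Psmb8, Psmb9 and Psmb10.

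Ratios of an inducible to a constitutive subunit within a group are free of the scaling of that group. Psmb9 over Psmb6 was 1.26 in control WT and 0.565 in treated WT BMDCs, and 0.882 and 0.616 in control and treated GEF-H1-/- BMDCs. The drug's change of this ratio was -1.16 (-1.84 to -0.47) on the log2 scale in WT and -0.52 (-1.21 to 0.17) in GEF-H1-/- BMDCs, and the difference between the genotypes, -0.64 (-1.61 to 0.33), had an interval that held 0. Psmb8 over Psmb5 was 2.31 and 1.63 in WT and 1.73 and 1.47 in GEF-H1-/- BMDCs, and Psmb10 over Psmb7 was 0.799 and 0.608 in WT and 0.624 and 0.519 in GEF-H1-/- BMDCs. Control WT BMDCs had the highest value of every ratio, and only the Psmb9 to Psmb6 change in WT had an interval without 0 among the 3 ratios and both genotypes. Summed over the subunits, the inducible ones made up 59.9% and 49% of the FPKM of both kinds in control and treated WT BMDCs, and 53.1% and 47.7% in the corresponding GEF-H1-/- groups.

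**Figure D2:**
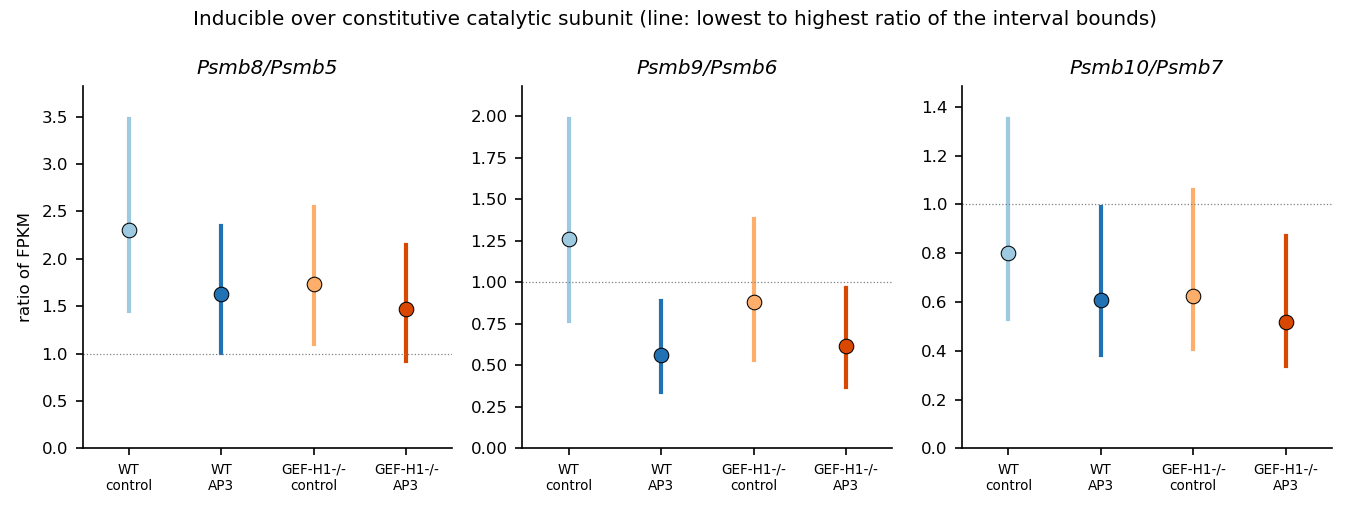
Ratio of the FPKM of each inducible proteasome subunit to that of the constitutive subunit it replaces, in the 4 groups on linear axes from 0; lines run from the lowest to the highest ratio the Cuffdiff interval bounds allow and the dotted line marks equal levels. Psmb9 over Psmb6 is 1.26 in control WT and 0.565 in treated WT BMDCs, and every ratio is highest in control WT BMDCs.

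In GEF-H1-/- BMDCs no class I gene was called by either rule used above. In the deposited FPKM, B2m, H2-K1 and Erap1 had ratios of the opposite sign to WT, with intervals that held 0 in both genotypes. With equal FPKM totals B2m (-0.07 in both genotypes) and H2-K1 (-0.19 in WT, -0.04 in GEF-H1-/-) no longer differed in sign. Of the 10 genes, 8 had a log2 ratio below 0, beside 52.3% of all genes, and the median was -0.17, beside -0.01 over all genes. No member had intervals apart, a rule met by 3.7% of all genes, and none passed a ratio of 1 in size, met by 1.08%. A less strict rule, chosen after the values were seen, asked that the interval of the log2 ratio not hold 0. It was met by Tap1 alone in GEF-H1-/- BMDCs, where 3.01% of all genes met it on the lower side, and by Tap1 and Psmb9 in WT BMDCs, where 14.2% did.

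The difference between the drug's effects, WT minus GEF-H1-/-, held 0 in its interval for all 10 genes. It was -0.41 (-1.09 to 0.28) for Psmb9, -0.12 (-0.66 to 0.41) for Tap1 and -0.26 (-0.86 to 0.33) for Erap1. For the chains it was 0.23 (-0.58 to 1.045) for B2m, 0.22 (-0.39 to 0.84) for H2-D1 and 0.09 (-0.47 to 0.65) for H2-K1, which turned to -0.00, -0.01 and -0.15 with equal FPKM totals, a setting in which the differences of Psmb9 (-0.64), Tap1 (-0.35) and Erap1 (-0.49) were larger. For 7.77% of all genes the same interval did not hold 0, with no correction for the number of genes. A difference of 1 in size was passed by 1.9%, against 0 of the 10 members by either rule. The falls of Tap1 and Psmb9 in WT BMDCs were therefore not shown to be larger than in GEF-H1-/- BMDCs at the precision of these group values.

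**Figure D3:**
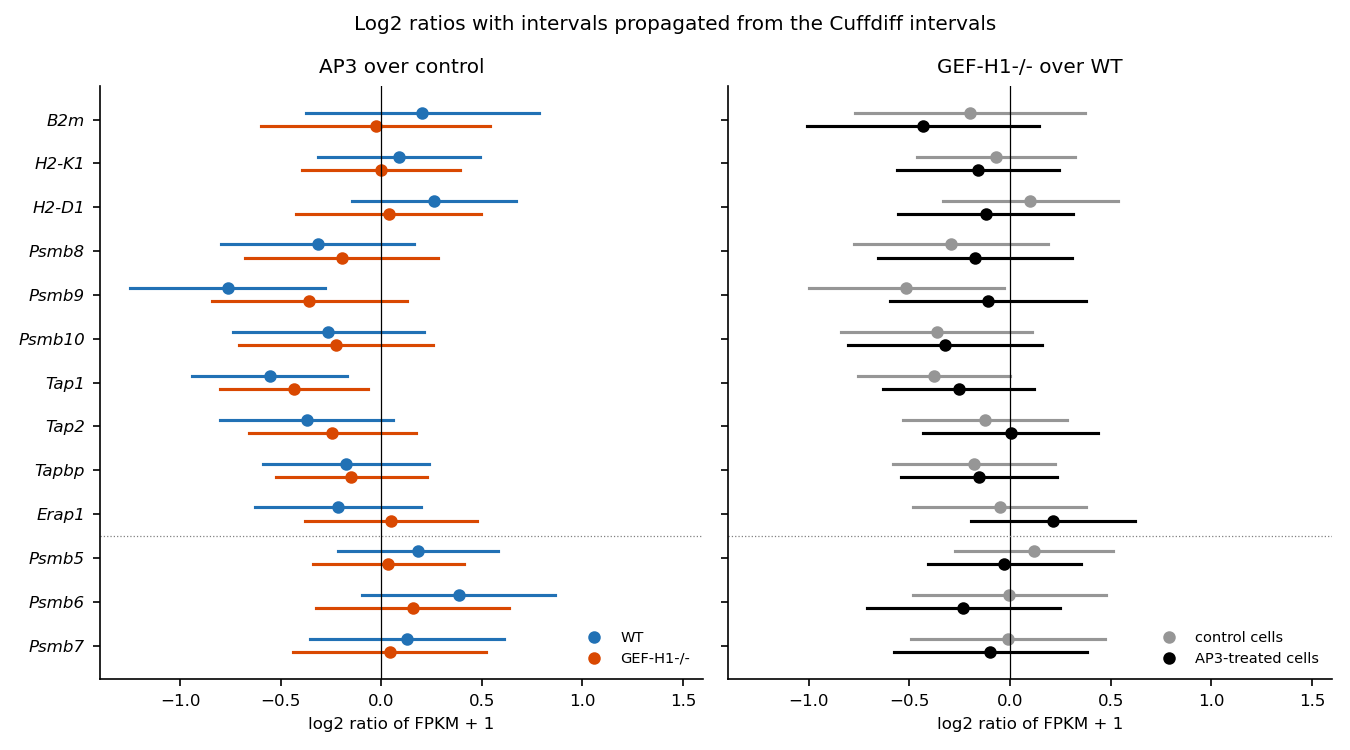
Log2 ratios of FPKM + 1 for the 10 class I genes (above the dotted line) and the constitutive proteasome subunits, for ansamitocin-P3 over control in each genotype (left) and for GEF-H1-/- over WT in each treatment (right); lines are 95% intervals propagated from Cuffdiff's. The WT drug ratios of Psmb9 (-0.76) and Tap1 (-0.55) have intervals below 0, and the drug ratios above 0 of B2m, H2-K1 and H2-D1 in WT turn below 0 if all groups are given the same FPKM total.

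Untreated GEF-H1-/- BMDCs had lower values than untreated WT BMDCs for 9 of the 10 genes, beside 52.1% of all genes, with H2-D1 the exception (log2 ratio 0.10). The log2 ratios were -0.52 (-0.9995 to -0.03) for Psmb9, -0.38 for Tap1, with an upper bound that just missed 0, -0.36 (-0.84 to 0.11) for Psmb10 and -0.29 (-0.77 to 0.19) for Psmb8. No group intervals were apart, a rule met by 4.74% of all genes, and no ratio passed 1 in size, met by 1.88%. By the rule on the interval of the ratio, Psmb9 and Tap1 were lower, beside 4.38% of all genes on the lower side, but for Tap1 this was lost with median-ratio scaling (-0.75 to 0.01) and with equal FPKM totals. The median of the 10 genes was -0.19, beside -0.01 over all genes.

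After ansamitocin-P3 the genotypes lay closer for most of the peptide-handling genes. The log2 ratio of GEF-H1-/- to WT was -0.11 (-0.60 to 0.38) for Psmb9, -0.26 (-0.63 to 0.12) for Tap1 and 0.00 (-0.43 to 0.44) for Tap2, while that of B2m was -0.43 (-1.01 to 0.14). None of the 10 had intervals apart, a rule met by 13.7% of all genes, and none passed 1 in size, met by 4.06%. Every interval of a member's ratio held 0 in the deposited FPKM, whereas for 25.1% of all genes it did not. With equal FPKM totals the ratio of Erap1 was 0.47 (0.06 to 0.87), an interval without 0. The directions in this comparison depend on the scale: with equal FPKM totals, which raised the median of all genes by 0.23, H2-K1 (0.10), H2-D1 (0.14), Tapbp (0.10), Psmb8 (0.08) and Psmb9 (0.15) turned from lower to higher in GEF-H1-/- BMDCs. The genotype comparisons share their groups with the drug comparisons and are not independent of them.

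Markers of other bone marrow cell types differed between the genotypes in the same libraries. Summed over the 7 neutrophil markers found of 8, the groups had 30730 and 36170 FPKM in control and treated WT BMDCs and 21170 and 21610 FPKM in control and treated GEF-H1-/- BMDCs, led by S100a8, a gene whose value exceeded the upper bound given for it in every group (19401 FPKM with bounds of 9356 and 16474 in control WT). Camp, a granule protein of late neutrophil precursors, had 189 and 202 FPKM in WT and 14.98 and 18.7 FPKM in GEF-H1-/- BMDCs, whereas Mpo, Elane and Retnlg, 3 of the 7, were higher in GEF-H1-/- BMDCs. The 6 mast cell and basophil markers summed to 185 and 191 FPKM in WT and 359 and 345 FPKM in GEF-H1-/- BMDCs, with Mcpt4 at or near 0 in all groups. T cell markers (4 found of 5) summed to 12.9 to 21.2 FPKM, B cell markers (5) to 6.56 to 16.6 FPKM and NK cell markers (5) to 28.4 to 78.1 FPKM, nearly all from Gzmb, with GEF-H1-/- below WT in each. The 5 macrophage markers found of 6 summed to 190 and 152 FPKM in WT and 233 and 214 FPKM in GEF-H1-/- BMDCs. In RNA from a whole culture, fewer cells of a type and less RNA per cell cannot be told apart, and the part of these cell types in the genotype ratios of the class I genes was not tested.

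The medians of the other proteasome lists lay nearer 0 than that of the inducible subunits (-0.32 in WT) in the deposited FPKM, although single genes did not. Of the 11 other subunits of the 20S core, the median log2 ratio of ansamitocin-P3 over control was 0.06 in WT and 0.00 in GEF-H1-/- BMDCs, and none had intervals apart in any comparison. Psma7 and Psmb4, the highest of them, had 248 and 226 FPKM in control WT and 253 and 240 FPKM in treated WT BMDCs. The 19S regulatory particle, which feeds proteins into the core, had 19 of 21 genes above 0 in WT BMDCs, beside 50.1% of all genes, with a median of 0.13. In GEF-H1-/- BMDCs 14 of 21 were above 0, beside 47.6% of all genes, with a median of 0.02. Psmd8 had the largest of these ratios, with 163 and 238.1 FPKM in WT (log2 ratio 0.54) and 159 and 188 FPKM in GEF-H1-/- BMDCs. With equal FPKM totals the WT medians turned to -0.22 for the 20S core and -0.14 for the 19S particle, a shift that applies to the inducible subunits too and leaves the distance between the lists as it was.

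The PA28 activator caps the proteasome and, like the inducible subunits, is known as an interferon-γ target, and in the deposited FPKM its genotype ratios were further from 0 than its drug ratios, which with equal FPKM totals no longer held in every comparison. Psme1 had 320 and 327 FPKM in control and treated WT BMDCs and 254 and 240 FPKM in GEF-H1-/- BMDCs, and Psme2 had 422 and 437 FPKM in WT and 317 and 320 FPKM in GEF-H1-/- BMDCs. The log2 ratios of GEF-H1-/- to WT were -0.33 and -0.45 for Psme1 and -0.41 and -0.45 for Psme2 in control and treated cells, all with overlapping group intervals. Of these 4 ratios that of Psme1 in treated cells had an interval without 0, as for 25.1% of all genes there. Among the 9 genes of PA28 and proteasome assembly, Psmg2, an assembly chaperone, alone had intervals apart. It had 16.6 FPKM in treated WT and 28.1 FPKM in treated GEF-H1-/- BMDCs, a comparison in which 13.7% of all genes were apart.

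**Figure D4:**
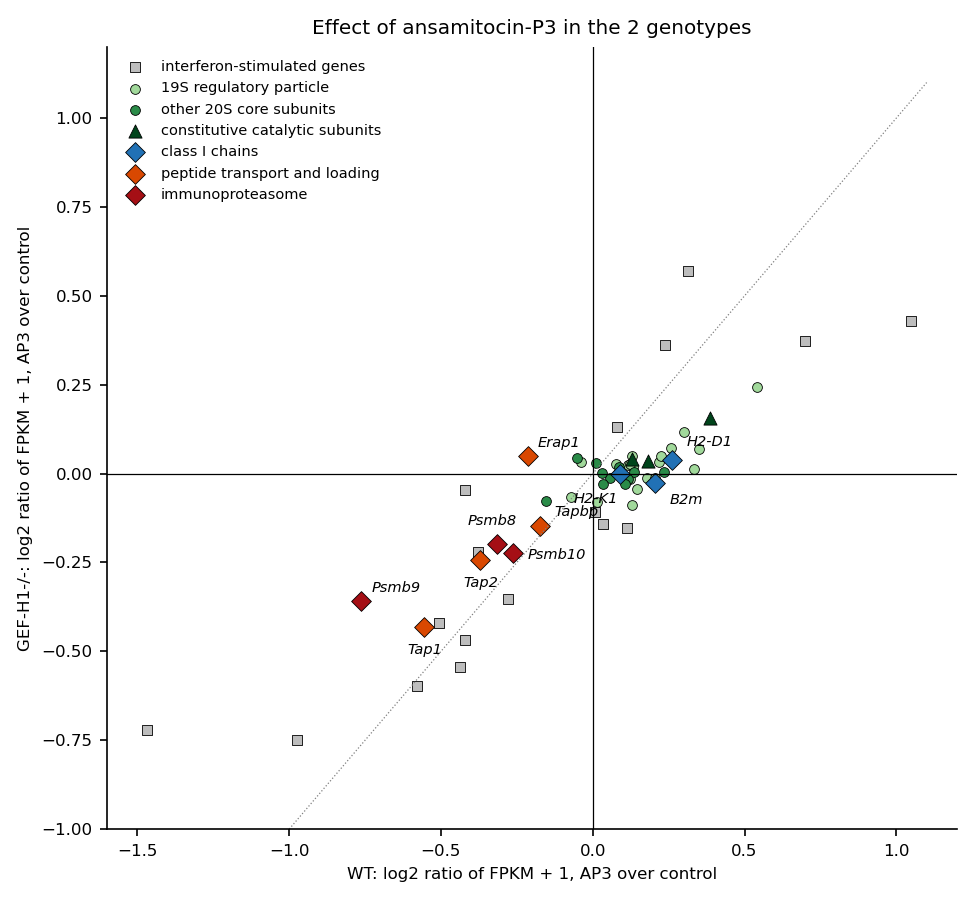
Log2 ratio of FPKM + 1, ansamitocin-P3 over control, in WT (x axis) and GEF-H1-/- BMDCs (y axis) for the class I genes (diamonds), other proteasome genes and interferon-stimulated genes; each point is 1 gene and the dotted line marks equal ratios. Psmb9 lies at -0.76 and -0.36 and Tap1 at -0.55 and -0.43, most other proteasome subunits lie near 0 in GEF-H1-/- and up to 0.54 (Psmd8) in WT, and the class I chains lie above 0 in WT in the deposited scale but not with equal FPKM totals.

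Interferon-stimulated genes, a group known to share inducers with the immunoproteasome and TAP, did not move as 1 set. Of 20 such genes 17 passed the filter, with a median log2 ratio of -0.28 in WT and -0.15 in GEF-H1-/- BMDCs, beside -0.24 and -0.17 for the 10 class I genes. With equal FPKM totals the WT median of these genes was -0.55. In WT, Cxcl10 and Oasl1 had higher and Usp18 and Gbp5 lower values with intervals apart, beside 16.8% of all genes apart in either direction. The calls were not confined to WT. In GEF-H1-/- BMDCs, Usp18, Gbp5, Ifi47 and Irgm1 had lower and Rsad2 higher values with intervals apart, beside 3.7% of all genes. Usp18, an inhibitor of interferon signalling, had 21.3 and 7.05 FPKM in WT and 18.5 and 10.8 FPKM in GEF-H1-/- BMDCs, and Gbp5, a guanylate-binding protein, 12.8 and 6.04 FPKM in WT and 9.64 and 5.33 FPKM in GEF-H1-/- BMDCs. The chemokine gene Cxcl10 went the other way, with 1.51 and 4.19 FPKM in WT and 0.991 and 1.68 FPKM in GEF-H1-/- BMDCs. In untreated cells, 16 of the 17 genes were lower in GEF-H1-/- than in WT BMDCs, beside 52.1% of all genes. Intervals were apart for Gbp2, at 29.3 against 58.9 FPKM, for Oasl1 and for Oas3, beside 4.74% of all genes in either direction. Oas3 was named after its values were seen.

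Of the 13 genes of factors that regulate class I transcription, 3 had higher values with intervals apart in treated WT BMDCs. Over all genes, 16.8% were apart there in either direction. Irf8, an interferon regulatory factor, had 18.8 and 96.8 FPKM in WT and 24.8 and 103 FPKM in GEF-H1-/- BMDCs. Rela, an NF-κB subunit, had 30.3 and 72.0 FPKM in WT and 31.2 and 49.97 FPKM in GEF-H1-/- BMDCs, and Nfkb1 had 111 and 228 FPKM in WT and 95.3 and 125 FPKM in GEF-H1-/- BMDCs. The rise of Nfkb1 was larger in WT BMDCs in the deposited FPKM. The interval of the difference (0.65) did not hold 0, as for 7.77% of all genes. Equal FPKM totals lowered the median of this difference over all genes by 0.20, so the result for Nfkb1 depends on the scale. Nlrc5, the transactivator of class I genes, chosen after its values were seen, had 10.9 and 11.8 FPKM in WT and 8.45 and 9.05 FPKM in GEF-H1-/- BMDCs, with overlapping intervals. The median over the 13 genes was 0.11 in WT, or -0.15 with equal FPKM totals, and -0.02 in GEF-H1-/- BMDCs.

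Non-classical class I genes were mostly lower in treated cells, and several of them are near copies of each other and of H2-K1, so that their values are uncertain. Of 18 genes listed with the non-classical class I molecules, 14 passed the filter, 1 of which, H2-Ke6, encodes an enzyme. In each genotype 12 of the 14 were below 0, beside 49.6% of all genes in WT and 52.3% in GEF-H1-/- BMDCs. Their medians were -0.29 in WT and -0.14 in GEF-H1-/- BMDCs. H2-M3, which presents formylated peptides, had 20.5 and 13.4 FPKM in WT and 14.5 and 12.8 FPKM in GEF-H1-/- BMDCs, with intervals apart in WT. Mr1, which presents vitamin metabolites, had 1.26 and 0.626 FPKM in WT and 1.51 and 0.758 FPKM in GEF-H1-/- BMDCs, apart in both. With H2-M2, 3 of the 14 were lower by that rule in WT, beside 7.58% of all genes lower. In GEF-H1-/- BMDCs it was Mr1 alone, beside 3.7% of all genes in either direction. H2-M2 was the gene of this list with the largest genotype ratio, at 3.19 and 1.43 FPKM in WT and 10.6 and 9.89 FPKM in GEF-H1-/- BMDCs. The difference between the drug's effects on H2-M2 (-0.69, WT minus GEF-H1-/-) had an interval without 0, as for 7.77% of all genes. Cd1d1, which presents lipids, was lower in GEF-H1-/- BMDCs, at 5.08 against 9.65 FPKM in untreated cells. H2-T23 and H2-Q4, the highest of the list, had 116 and 72.0 FPKM in control WT BMDCs and log2 ratios of -0.02 and 0.12. The other 6 loading factors, among them the chaperones Calr (558 and 475 FPKM in WT) and Hspa5 (338 and 339 FPKM), had medians of -0.12 in WT and 0.01 in GEF-H1-/- BMDCs, and none had intervals apart.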

How the data were processed

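Strand-specific, paired-end libraries of polyadenylated RNA were made from 2 samples per group, and the authors computed FPKM with Cuffdiff (version 1.05; build mm10, per the submitters' processing notes). The aligner and annotation behind this table are not given in the sources used here. The deposited FPKM are 1 pooled value per gene and group with 95% bounds and a status. The WT columns name no genotype and were assigned by elimination, and 0 columns of per-sample values were left unused. Depth is unknown, since FPKM keeps no fragment counts.

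Of 23356 genes, 107 without status OK were left out, and at least 1 FPKM in 1 group was required (11397 genes). Log2 ratios used a pseudocount of 1 FPKM, which understates the change of low genes. A gene was called where the ratio passed 1 in size or where group intervals did not overlap. Intervals of ratios were propagated on the log2 scale as if groups were independent, a rule added after the values were seen. As the values are pooled, limma, planned for separate libraries, was not run. The computation was tested on simulated data.

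The members, lists and tests were chosen with earlier results of these data known. Named genes are the 10 members, Arhgef2, Psmb5, Psmb6 and Psmb7, and of each list the genes past a call rule (up to 8 by size of the WT ratio) and, for pathway lists, the 2 with the highest FPKM. Alternatives were pseudocounts of 0.1 and 5 FPKM, no filter or one of 5 FPKM, median-ratio scaling, equal FPKM totals, a limit of 0.5 and leaving out small RNA genes. Tools were Python 3.11.15, pandas 2.3.3, NumPy 2.4.6 and matplotlib 3.10.9.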

Additional observations from a re-analysis of the deposited data

How the results depend on the processing

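The log2 ratios of the 10 class I genes kept their sign under pseudocounts of 0.1 and 5 FPKM, without a filter or with one of 5 FPKM, and with median-ratio scaling (0 of 50 values changed sign in each). Scaling the groups to equal FPKM totals turned 12 of 50, those of the chains in WT BMDCs and in the difference of the effects, H2-D1 in GEF-H1-/- BMDCs, and 5 genes between treated genotypes, and brought 1 member (Psmb9) past a ratio of 1 in WT. The FPKM totals, 609360, 739523, 599331 and 617423 in control WT, treated WT, control GEF-H1-/- and treated GEF-H1-/- BMDCs, differ, and the cause was not tested.

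The counts of all genes past a ratio of 1, 563 in WT, 123 in GEF-H1-/-, 214 and 463 between untreated and treated genotypes and 216 for the difference, were 956, 212, 372, 801 and 387 with a pseudocount of 0.1 FPKM, and 318, 77, 101, 206 and 123 with 5 FPKM. With a limit of 0.5 they were 2671, 660, 818, 2205 and 1364, and 2 members in WT (Tap1, Psmb9) and 1 between untreated genotypes (Psmb9) passed. Without small RNA genes 74 passed in GEF-H1-/- BMDCs. With a filter of 5 FPKM, 349 rather than 540 genes had intervals apart between untreated genotypes. The other 107 counts stayed within 1.5 times, or at 0. The median of the 10 genes moved with equal FPKM totals from -0.24 to -0.51 in WT, from -0.08 to -0.31 for the difference and from -0.16 to 0.10 between treated genotypes, each by less than the median half-width of a member's interval.

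No paired analysis was possible because the columns are pooled per group, and leaving out a library could not be run for the same reason. With no library values, the intervals are those of Cuffdiff's model, and no difference was tested against the duplicates.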

Other observations

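Among genes linked to cross-presentation, Wdfy4 and Snap23 had ratios in WT with intervals apart, a rule met there by 16.8% of all genes. Of 22 such genes, 19 passed the filter, with a median log2 ratio of 0.12 in WT and 0.03 in GEF-H1-/- BMDCs. Wdfy4, a gene required for cross-presentation by conventional DCs, had 54.8 and 23.2 FPKM in control and treated WT BMDCs and 39.3 and 38.7 FPKM in control and treated GEF-H1-/- BMDCs. It was the 1 gene of the list past a difference of 1 between the genotypes (-1.19, WT minus GEF-H1-/-), beside 1.9% of all genes. The interval of this difference did not hold 0, as for 7.77% of all genes. Snap23, which acts in membrane fusion at phagosomes, had 70.3 and 132 FPKM in WT and 58.2 and 74.5 FPKM in GEF-H1-/- BMDCs, with intervals apart in WT. Mrc1, the mannose receptor, had 9.62 and 8.59 FPKM in WT and 16.0 and 16.9 FPKM in GEF-H1-/- BMDCs, apart between the genotypes in both treatments. Over all genes, 4.74% were apart between the untreated and 13.7% between the treated genotypes. Cyba and Sec61b, the highest of the list, had log2 ratios of 0.17 and 0.11 in WT BMDCs. Clec9a and Xcr1, which mark conventional DCs of the cross-presenting type, were under 1 FPKM in every group.

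Cytosolic peptidases, which trim or destroy peptides before TAP, moved in both directions. Of 8 genes, Thop1 had intervals apart in WT, beside 16.8% of all genes. It had 10.4 and 5.82 FPKM in control and treated WT BMDCs and 13.1 and 10.8 FPKM in GEF-H1-/- BMDCs. Npepps had 31.0 and 47.7 FPKM in WT and 27.1 and 28.3 FPKM in GEF-H1-/- BMDCs, and Ide had 33.8 and 22.1 FPKM in WT and 39.9 and 37.5 FPKM in GEF-H1-/- BMDCs. For each of these 3 genes the treated genotypes were apart, as they were for 13.7% of all genes. The interval of the difference between the drug's effects held 0 for each of the 3.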
